A study of Mus musculus with 24 samples.

Results

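RNA left in the supernatant after astrocyte ribosomes had been pulled out of mouse cerebral cortex was compared between sleep-deprived and sleeping animals. The comparison used the 4 arrays labelled as unbound fraction of these states, 2 after sleep deprivation and 2 from sleep, out of 24 arrays in all, and was read across 18193 genes. Every mouse was an adult heterozygous aldh1l1 - eGFP-L10a animal, in which the Aldh1l1 promoter, active in astrocytes, drives a ribosomal protein L10a tagged with eGFP. Each unbound sample pooled the supernatant RNA of 3 mice, so each state was measured in 2 pools of different animals. Sleeping mice were killed at about 3 to 5 in the afternoon, after a sleep period of over 45 min with wake interruptions under 4 min, and had slept for at least 75% of the preceding 6 to 7 h. Sleep-deprived mice had been awake for most of the dark phase and were then kept awake for 4 h of the light phase with unfamiliar objects. The clock time of their death is not given. As a second reference, 2 unbound pools of spontaneously awake mice were used, killed at about 3 to 5 in the morning after over 1 h awake with sleep interruptions under 5 min and at least 70% wake in the preceding 6 to 7 h. The bound fraction of the same states (6 single animals each) served as the astrocyte-enriched counterpart.

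Sleep deprivation keeps cortical circuits active past the normal sleep phase. Neurons that fire strongly switch on immediate early genes, which encode transcription factors such as FOS, EGR and NR4A proteins and synaptic effectors such as ARC. Prolonged wakefulness is also known for raising chaperones of the endoplasmic reticulum, glucocorticoid-responsive genes and phosphatases that end MAP kinase signalling, and for shifting the level of some circadian clock genes. The unbound fraction holds RNA of neurons and of glia other than astrocytes, and can still hold astrocyte RNA that the pull-down missed. In such a tissue extract fewer cells of a type and less RNA per cell cannot be told apart.

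Levels are deposited log2 values. The median difference of all genes between sleep deprivation and sleep was 0.178, so each difference below is given relative to the median of its comparison. Calls rest on the fitted differences without this shift, at an adjusted p under 0.05 from limma (Benjamini-Hochberg over all 18193 genes). The 6 unbound arrays (2 per state) shared 1 estimate of the spread. Equal values in both arrays of a state occurred for 2248 probe sets in sleep, 1707 in waking and 2071 in sleep deprivation, and for 0 in each pair of arrays from different states. Ties within but not between states are what normalizing each state by itself would leave, and an offset between runs and an effect of state cannot be told apart. The adjusted p covers the spread between pools of a state, not such an offset.

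The unbound RNA of sleep-deprived mice carried more of many activity-regulated transcripts than that of sleeping mice. Fos was 5.53-fold, Egr2 6.55-fold, Arc 4.41-fold and Nr4a1 3.85-fold higher, while Dbp, a clock output gene, was 2.39-fold lower. In all, 341 genes passed the threshold, 259 higher (1.42% of those tested) and 82 lower (0.451%), and 4610 had an unadjusted p under 0.05. The smallest adjusted p was 0.0371. Most calls fell among weakly detected genes: 185 of the 259 higher and 75 of the 82 lower genes lay below the median level of 6.78. Among the 9097 genes at or above it, 74 were higher (0.813%) and 7 lower (0.0769%). With the arrays quantile-normalized together 60 genes were higher and 66 lower, and with each array centred on its median 76 and 77, so that 47.6% and 49.7% of calls were higher, against 76.0% as deposited. No gene passed (0 of 18193) when any 1 of the 6 arrays was left out, and a call thus needed all 6. Under both scalings Egr2, Klf10, Dusp1, Dusp4, Nfil3, Fkbp5, Tra2a, Rsrp1, Vip, Entpd1, Slc29a2, Ppp1r3c, Csf1, Dio2 and Pdp1 lost their calls. Arc, Ptgs2, Inhba, Homer1 and Gadd45a lost theirs under quantile normalization alone. The limma adjusted p of these lost calls ran from 0.0502 for Arc to 0.0742 for Dusp1. The pools of the 2 states did not overlap in 10630 of the 18193 genes (58.4%), so separation alone is common here. Of the 341 called genes, 17.6% had equal values in both pools of sleep or of sleep deprivation, against 6.89% of all genes.

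**Figure D1:**
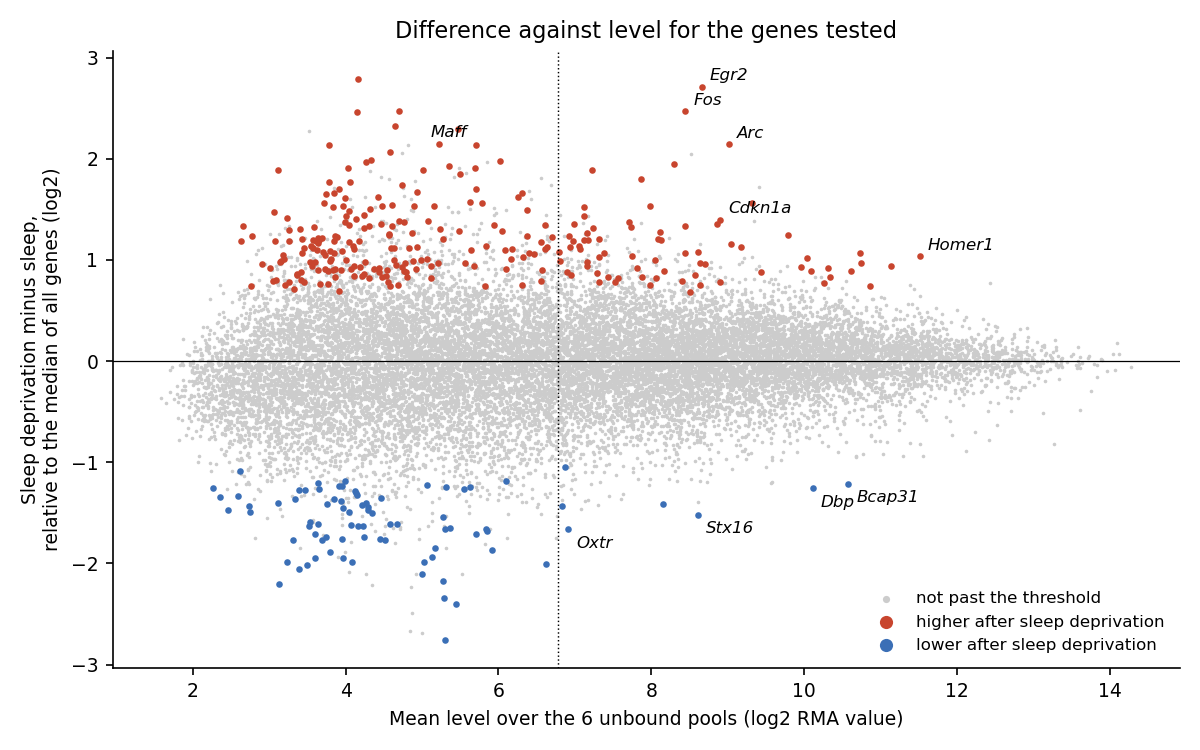
Each point is 1 gene, with its mean log2 level over the 6 unbound pools on the horizontal axis and the relative log2 difference between sleep deprivation and sleep on the vertical axis. Red points are the 259 genes called higher and blue points the 82 called lower, and the dotted line marks the median level of 6.78. Most coloured points lie left of that line, while Egr2, Fos, Arc, Cdkn1a, Homer1, Dbp, Stx16 and Bcap31 lie to its right.

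Among 20 measured immediate early transcription factors, 6 rose after sleep deprivation and 0 fell, against 1.42% and 0.451% of all genes. The list had a median difference of 0.67, against 0 over all genes, and 12 of its 20 members had an unadjusted p under 0.05 (60.0%, against 25.3% of all genes). Fos, a subunit of the AP-1 factor, measured 7.06 and 6.51 in the sleep pools and 9.21 and 9.65 in the deprivation pools. Both deprivation pools lay above both sleep pools, and the difference was 2.47 ± 0.29 (SE, adjusted p = 0.0374). Egr2, a zinc-finger factor, had 6.26 and 7.36 in sleep and 9.39 and 10.01 after deprivation. The sleep pools stood far apart from each other, yet both stayed below the deprivation pools (2.71 ± 0.44, adjusted p = 0.0439). Egr3, from the same family, stood at 10.17 and 10.07 in sleep and at 11.40 and 11.34 after deprivation. Its pools nearly coincided within each state and the states did not overlap (1.07 ± 0.15, adjusted p = 0.0374). A second Egr2 probe set gave 1.78, and a second Egr3 probe set, far dimmer, gave 0.24.

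Nr4a1, an orphan nuclear receptor, measured 7.18 and 6.58 in sleep against 8.92 and 9.08 after deprivation (1.94 ± 0.25, adjusted p = 0.0374). Its 2 relatives did not pass, with differences of 0.58 for Nr4a3 (1.02 and 1.07 in its other probe sets) and 0.13 for Nr4a2. Maff, a small MAF protein that pairs with other leucine-zipper factors, was dim throughout, at 4.34 and 4.37 in sleep and 6.86 and 6.48 after deprivation (2.14 ± 0.19, adjusted p = 0.0371). Klf10, a Krüppel-like repressor, had 9.13 and 8.55 in sleep and 10.31 and 10.23 after deprivation (1.25 ± 0.22, adjusted p = 0.045). In all 3 genes the 2 states were fully separated, as they were in 58.4% of all genes. Egr1, the most strongly detected member, lay at 11.80 and 11.87 in sleep and at 12.71 and 12.85 after deprivation, a difference of 0.77 ± 0.17 that narrowly missed the threshold (adjusted p = 0.0572). Fosb had a larger value of 1.44 with more spread (SE 0.46, adjusted p = 0.108), and Fosl2 one of 0.81 (adjusted p = 0.059). Junb, at -0.43, and Crem, at -0.02, had no positive difference in the probe set tested, and 3 other Crem probe sets gave -0.36 to 0.83. The 14 members without a call thus included both positive and negative values.

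**Figure D2:**
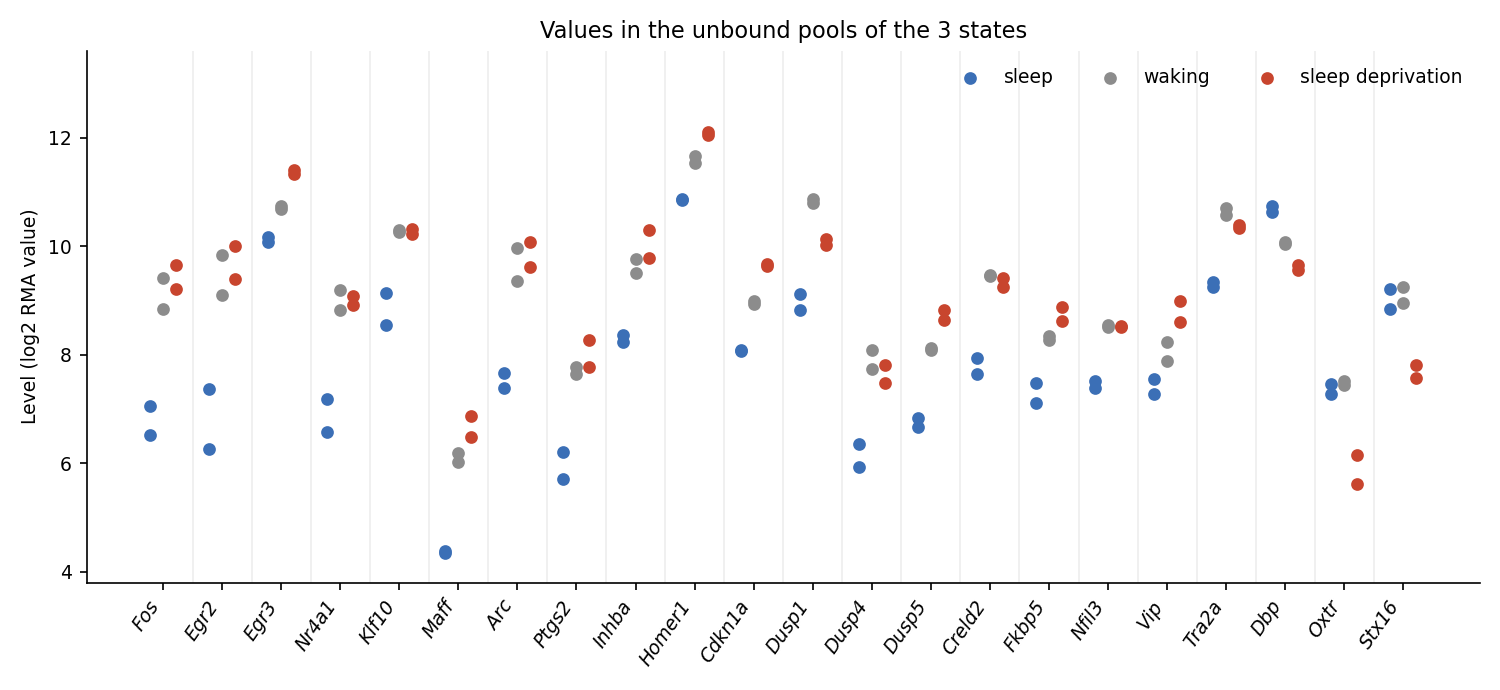
Log2 levels in each of the 6 unbound pools are shown for 22 genes, with sleep in blue, spontaneous waking in grey and sleep deprivation in red, 2 points per state. In the first 19 genes both deprivation pools lie above both sleep pools, and in Dbp, Oxtr and Stx16 both lie below them.

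Activity-induced effectors, the proteins through which these programmes act on synapses and signalling, gave 5 higher and 0 lower members of 24, with a median of 0.47. At an unadjusted p under 0.05 were 18 members (75.0%). Of all genes 1.42% were higher, 0.451% lower and 25.3% under 0.05. Arc, which drives removal of AMPA receptors from the synapse, rose from 7.39 and 7.67 in sleep to 9.62 and 10.07 (2.14 ± 0.27, adjusted p = 0.0374). Ptgs2, the inducible cyclooxygenase that starts prostaglandin synthesis, measured 5.72 and 6.20 in sleep and 7.76 and 8.28 after deprivation (1.88 ± 0.25, adjusted p = 0.0374). For Inhba, the activin A subunit, the sleep pools had 8.36 and 8.24 and the deprivation pools 9.77 and 10.31 (1.56 ± 0.22, adjusted p = 0.0374). In each of these genes both sleep pools lay below both deprivation pools, where 58.4% of all genes had separated states. The other called members are Homer1 and Cdkn1a, the second of which is also in the glucocorticoid list. A second Ptgs2 probe set gave 2.31, whereas a dim second Inhba probe set gave 0.35.

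Homer1, a postsynaptic scaffold with a short form induced by activity, had 10.87 and 10.86 in sleep and 12.05 and 12.10 after deprivation (1.04 ± 0.15, adjusted p = 0.0374). Its 6 probe sets fell into 2 kinds: 3 gave differences of 1.04, 1.51 and 1.57, and the other 3 gave 0.25, 0.39 and 0.23. The files do not say which of them read the short form. Bdnf, the neurotrophin, stood at 7.05 and 7.40 in sleep and at 8.40 and 8.38 after deprivation, without passing (0.99 ± 0.23, adjusted p = 0.0624), and its other probe set gave 0.02. Further members with positive values that did not pass were Trib1, a pseudokinase, at 1.09, Nptx2, a secreted pentraxin of excitatory synapses, at 0.81, and Plk2, a kinase of synaptic scaling, at 0.61. With joint quantile normalization 1 of the 24 effectors still passed, and 4 of the 20 transcription factors did.

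Feedback inhibitors of MAP kinase signalling gave 3 higher and 0 lower of 12 members, against 1.42% and 0.451% of all genes. Their median was 0.68, and 10 members had an unadjusted p under 0.05 (83.3%, against 25.3% of all genes). Dusp5, a nuclear phosphatase of ERK, measured 6.66 and 6.84 in sleep and 8.81 and 8.63 after deprivation (1.80 ± 0.16, adjusted p = 0.0371). Dusp4, another nuclear phosphatase, had 6.36 and 5.94 against 7.48 and 7.81 (1.32 ± 0.23, adjusted p = 0.045). Dusp1, which acts on p38 and JNK as well, had 8.82 and 9.12 against 10.02 and 10.14 (0.93 ± 0.17, adjusted p = 0.045). The pools of the 2 states were separated in all 3 genes, as in 58.4% of all genes. Spry4, a receptor kinase feedback inhibitor, had a value of 1.37 that did not pass (SE 0.36, adjusted p = 0.0785) but was positive in all 4 probe sets, from 1.37 to 2.03, and the other 3 passed when every probe set was tested by limma (adjusted p = 0.0344 to 0.0401). Dusp6, the cytoplasmic ERK phosphatase, had 0.76 and Dusp10 had 0.86, both without a call. Under joint quantile normalization 1 of the 12 members passed.

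Promoters of 4 called genes are shown because each holds a motif through which factors of these programmes bind DNA. Each sequence is the 250 bases before a transcription start, 5′ to 3′ along the gene, from RefSeq (GRCm38.p6), and capitals mark the motif. For Egr2 (chr10:67537316-67537565, plus strand) the capitals are a CArG box, the core bound by serum response factor, and for Dusp5 (chr19:53528895-53529144, plus strand) they are 2 adjoining CArG boxes. In Dusp1 (chr17:26508473-26508722, minus strand) they are the cyclic AMP response element TGACGTCA, and in Creld2 (chr15:88819396-88819645, plus strand) an endoplasmic reticulum stress element (CCAAT, 9 bases, CCACG, here on the opposite strand).
Egr2: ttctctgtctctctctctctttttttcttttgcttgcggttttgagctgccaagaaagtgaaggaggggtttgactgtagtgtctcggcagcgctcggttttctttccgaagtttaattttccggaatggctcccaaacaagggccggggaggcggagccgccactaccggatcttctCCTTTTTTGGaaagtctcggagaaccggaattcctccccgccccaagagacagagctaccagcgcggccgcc
Dusp5: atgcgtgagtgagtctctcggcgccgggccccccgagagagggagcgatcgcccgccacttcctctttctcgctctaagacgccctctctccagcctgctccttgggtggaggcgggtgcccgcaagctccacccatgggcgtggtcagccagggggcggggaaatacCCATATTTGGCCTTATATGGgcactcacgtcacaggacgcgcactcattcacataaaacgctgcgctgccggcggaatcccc
Dusp1: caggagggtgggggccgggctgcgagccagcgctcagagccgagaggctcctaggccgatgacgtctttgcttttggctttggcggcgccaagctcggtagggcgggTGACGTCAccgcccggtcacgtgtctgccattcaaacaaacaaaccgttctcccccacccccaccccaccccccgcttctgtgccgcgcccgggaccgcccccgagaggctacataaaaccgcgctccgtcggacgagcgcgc
Creld2: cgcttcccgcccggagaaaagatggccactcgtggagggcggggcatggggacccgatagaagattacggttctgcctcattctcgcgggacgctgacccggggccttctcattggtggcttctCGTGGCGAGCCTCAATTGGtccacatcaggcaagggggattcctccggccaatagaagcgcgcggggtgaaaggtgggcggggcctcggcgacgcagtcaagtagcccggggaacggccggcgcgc
Both strands of 32851 promoters of 300 bases (250 before and 50 after the start) were searched. A CArG box occurred in 1.63% of them, TGACGTCA in 1.79% and the stress element in 0.119%. Counted by gene, as the lists are below, 488, 549 and 37 of 27025 genes held them in any promoter. Of 15 immediate early factors with a promoter in the table, 2 held TGACGTCA (Maff among the called ones) and 1 a CArG box. Of 10 MAP kinase feedback genes 2 held TGACGTCA and 1 a CArG box. The stress element was found in 7 of 19 chaperone genes of the endoplasmic reticulum, of which Creld2 was called. The palindrome CACGTG, an E-box bound by CLOCK and BMAL1, occurred in 7.15% of promoters, or 2187 of 27025 genes. Among the clock repressors and outputs 5 of 12 genes held it. These matches describe letters in a window and show no binding.

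Chaperones of the endoplasmic reticulum gave 1 higher and 0 lower of 22 members, against 1.42% and 0.451% of all genes. Their median difference was 0.39, and 18 of the 22 were positive, against 9093 of all 18193 genes. An unadjusted p under 0.05 was found for 13 members (59.1%, against 25.3% of all genes). Creld2, a secreted protein made under stress of this compartment, measured 7.65 and 7.93 in sleep and 9.42 and 9.24 after deprivation (1.36 ± 0.17, adjusted p = 0.0374). Hspa5, the master chaperone BiP, lay at 10.38 and 10.44 in sleep and at 11.08 and 11.36 after deprivation, with the states apart but no call (0.63 ± 0.17, adjusted p = 0.0701). Sdf2l1, a chaperone cofactor, had 1.20 (adjusted p = 0.0656), and Herpud1, which serves protein disposal, had 0.99 (adjusted p = 0.062) with a second probe set at 0.00. Ddit3, which encodes the pro-apoptotic factor CHOP, had -0.10. With an intensity trend in the model 9 of the 22 passed, all higher, so the count of calls in this list turned on how the spread was modelled.

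Cytosolic and mitochondrial heat shock chaperones held no gene past the threshold (0 of 21 in limma), at a median of 0.22. With an unadjusted p under 0.05 were 10 members (47.6%, against 25.3% of all genes). Hspa1b, an inducible HSP70, had 0.98 (adjusted p = 0.0672), Dnajb5, a co-chaperone, 0.94 (adjusted p = 0.0664) and Ahsa1, the HSP90 activator, 0.54 (adjusted p = 0.0701). Dimmer Hspa1b probe sets gave 1.38 and 1.26, and the latter passed when every probe set was tested by limma (adjusted p = 0.0455). A dim second Ahsa1 probe set gave -0.22. The 2 other Dnajb5 probe sets, both brighter in the unbound arrays, gave 0.36 and 0.35. Hspe1, the mitochondrial HSP10, went the other way at -0.73 without a call (11.95 and 11.91 in sleep, 11.38 and 11.36 after deprivation). Its dimmer second probe set gave -0.18, with overlapping states (9.41 and 9.56 in sleep, 9.53 and 9.43 after deprivation). With an intensity trend in the model 10 of the 21 passed higher and 1 lower. The mean of probe sets gave 1 higher and 0 lower, and all 24 arrays 1 higher and 1 lower, so this count also turned on the model. Of all genes the mean of probe sets called 452 higher and 116 lower, and all 24 arrays 734 and 265.

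Glucocorticoid-responsive genes gave 3 higher and 0 lower of 22 members, against 1.42% and 0.451% of all genes. Their median was 0.49, and 15 members had an unadjusted p under 0.05 (68.2%, against 25.3% of all genes). Fkbp5, a co-chaperone that dampens the glucocorticoid receptor, measured 7.49 and 7.10 in sleep and 8.87 and 8.62 after deprivation (1.28 ± 0.20, adjusted p = 0.0383), with 0.26 and 0.24 in its dimmer probe sets. Cdkn1a, the cell cycle inhibitor p21, had 8.07 and 8.09 in sleep and 9.64 and 9.68 after deprivation (1.40 ± 0.15, adjusted p = 0.0371). Its second probe set gave 1.40 as well, and the pools of each state were almost equal. Plin4, a lipid droplet coat protein, was dim, at 4.55 and 4.12 against 6.67 and 6.03 (1.84 ± 0.26, adjusted p = 0.0379). Tsc22d3, the glucocorticoid-induced leucine zipper, had 0.93 (adjusted p = 0.0589) but -0.40 to 0.16 in 3 other probe sets. The receptor gene itself, Nr3c1, had -0.19. The growth arrest list (15 genes, 2 higher, 0 lower, median 0.18) shares Cdkn1a and adds Gadd45a, a DNA damage response gene, at 7.70 and 7.75 in sleep and 8.92 and 9.02 after deprivation (1.06 ± 0.16, adjusted p = 0.0374).

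Clock genes are grouped here by phase. Among 13 repressors and outputs 0 rose and 1 fell (median -0.08), and among 7 activators and opposite-phase genes 1 rose and 0 fell (median 0.39). Of all genes 1.42% rose and 0.451% fell. Dbp, the output factor that binds D-box elements, measured 10.73 and 10.62 in sleep and 9.55 and 9.64 after deprivation (-1.26 ± 0.15, adjusted p = 0.0397), and its second probe set gave -0.79. Nfil3, the repressor that competes for the same elements, had 7.51 and 7.38 in sleep and 8.52 and 8.51 after deprivation (0.89 ± 0.15, adjusted p = 0.0397). Dbp kept its call under joint quantile normalization (adjusted p = 0.0443) and with centred arrays (adjusted p = 0.0441), while Nfil3 lost it under both (adjusted p = 0.0572 and 0.0578). Ciart, a repressor of CLOCK and BMAL1, had -1.0 (adjusted p = 0.0682) and Clock had 0.66 (adjusted p = 0.0564). Other well-detected Clock probe sets gave 0.12 and -0.49, and a dim one gave 1.02. Per1 stood at 0.47 without a call. For Per2, a core clock repressor, the probe sets disagreed. The one tested gave 0.57 without a call, and its sleep pools, at 6.98 and 5.75, stood far apart from each other. A second probe set, somewhat brighter in the unbound arrays, had 5.77 and 5.71 in sleep and 7.28 and 7.66 after deprivation and gave 1.55 ± 0.22 (adjusted p = 0.0401 with every probe set tested by limma), and another, dim one gave 0.07. With the probe set brightest in the unbound arrays the repressors and outputs therefore held 1 higher and 1 lower gene. Cirbp, an RNA-binding protein that is higher when the brain is cool, had 10.65 and 10.41 in sleep and 9.90 and 10.19 after deprivation (-0.66 ± 0.19, adjusted p = 0.19). Since the time of death of sleep-deprived mice is not given, time of day and wakefulness cannot be told apart in these genes.

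**Figure D3:**
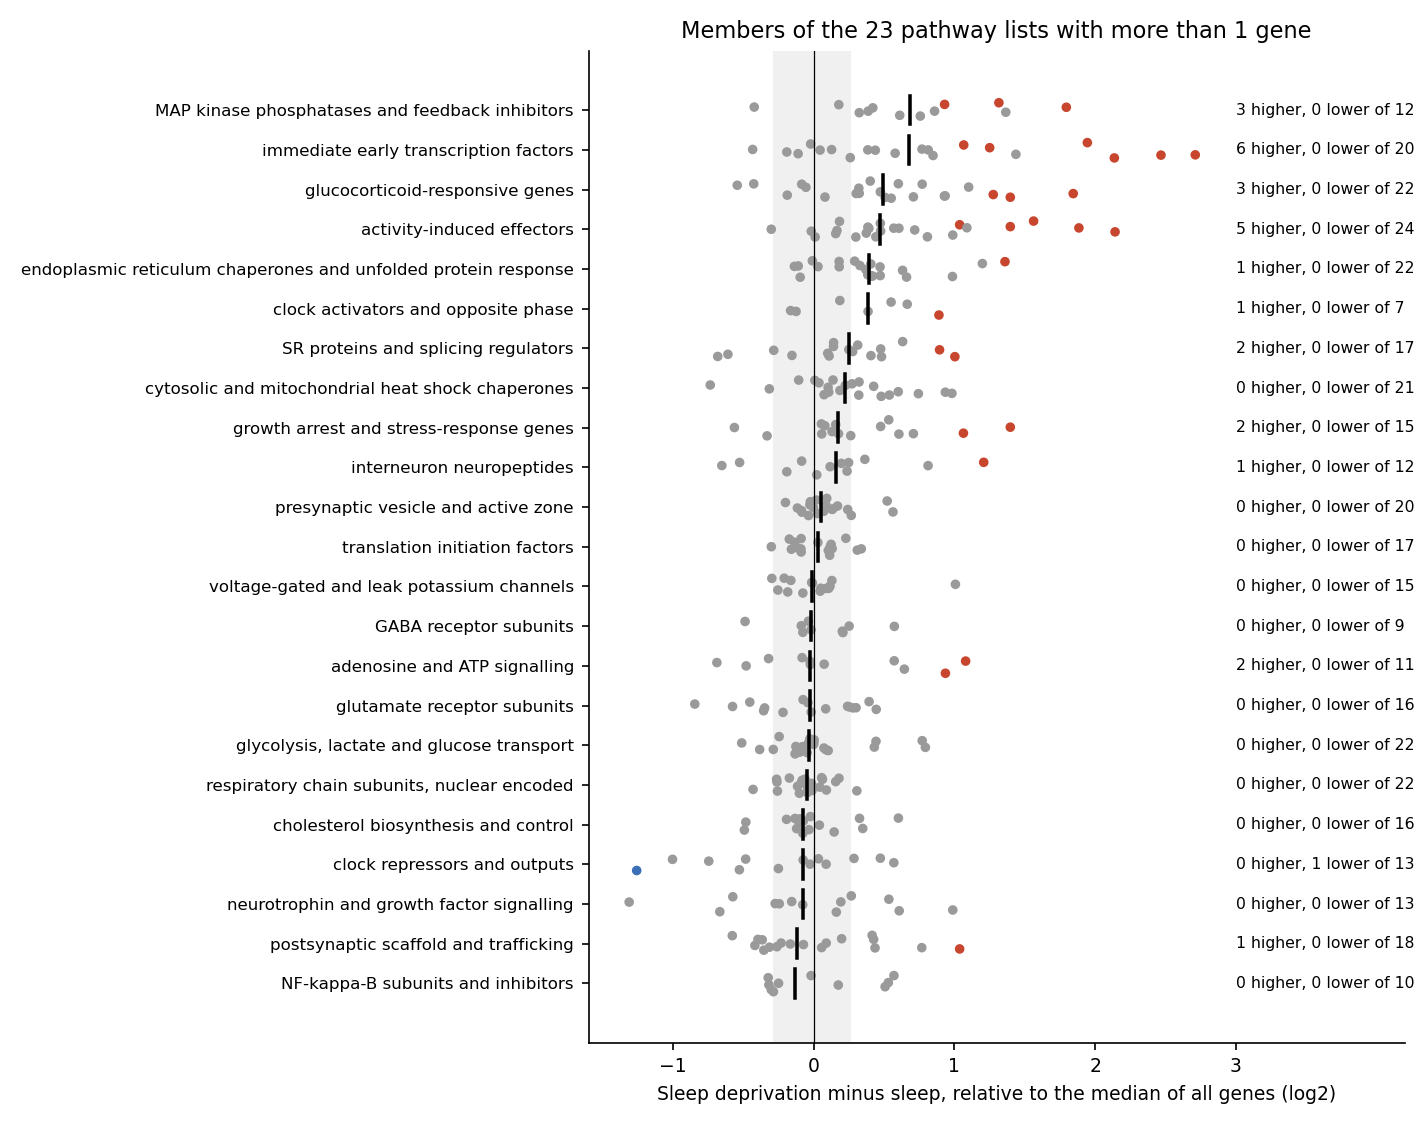
Each point is a gene of 1 of the 23 pathway lists with more than 1 measured gene, placed by its relative log2 difference between sleep deprivation and sleep, red where called higher and blue where called lower. Black bars are list medians and the grey band spans the middle 50% of all genes, -0.28 to 0.25. The 4 lists at the top, MAP kinase feedback, immediate early factors, glucocorticoid-responsive genes and activity effectors, have medians of 0.47 to 0.68, and synaptic, metabolic and channel lists centre near 0.

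Splicing regulators gave 2 higher and 0 lower of 17, against 1.42% and 0.451% of all genes (median 0.25). Tra2a, a splicing activator, had 9.34 and 9.24 in sleep and 10.39 and 10.33 after deprivation (0.89 ± 0.15, adjusted p = 0.0399). Rsrp1, an arginine- and serine-rich protein, had 7.03 and 7.35 against 8.36 and 8.38 (1.00 ± 0.18, adjusted p = 0.0439), and its other well-detected probe set gave 1.06. Srsf2, at -0.68, was the lowest member and did not pass, and its 3 other probe sets gave -0.47 to 0.36. Under joint quantile normalization neither gene passed.

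Interneuron peptides held 1 gene called higher of 12, against 1.42% of all genes (median 0.16). Vip, the peptide of disinhibitory interneurons, measured 7.55 and 7.27 in sleep and 8.60 and 8.99 after deprivation (1.21 ± 0.22, adjusted p = 0.047). Sst, at -0.65, had the lowest value of that list, without a call. In adenosine and ATP signalling 2 of 11 genes were higher, against 1.42% of all genes (median -0.02). Entpd1, the ectoenzyme CD39 that degrades extracellular ATP, had 6.16 and 6.28 against 7.39 and 7.56 (1.08 ± 0.19, adjusted p = 0.0429), though its other probe sets gave -0.61 and 0.42. Slc29a2, a nucleoside transporter, was dim and had 4.99 and 4.88 against 6.16 and 5.94 (0.94 ± 0.16, adjusted p = 0.0409), with -0.12 in its other probe set. Both calls, and that of Vip, were lost under joint quantile normalization.

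Genes of synaptic transmission and energy metabolism had medians near that of all genes. No member passed among 16 glutamate receptor subunits (0 called, 4 with an unadjusted p under 0.05, median -0.03), 9 GABA receptor subunits (0 called, 3 under 0.05, median -0.02), 20 presynaptic genes (0 called, 4 under 0.05, median 0.05) and 15 potassium channels (0 called, 1 under 0.05, median -0.01) in limma. Of 18 postsynaptic scaffold genes Homer1 alone passed (median -0.12). In the same test 0 of 22 glycolysis and transport genes passed (2 under 0.05, median -0.03), 0 of 22 respiratory chain subunits (1 under 0.05, median -0.05) and 0 of 16 cholesterol genes (2 under 0.05, median -0.08). For 17 translation initiation factors the count was 0 (2 under 0.05, median 0.03), for 13 neurotrophin and growth factor genes 0 (6 under 0.05, median -0.08), and for 10 NF-kappa-B genes 0 (0 under 0.05, median -0.13). Against a background of 1.42% higher and 0.451% lower these counts say nothing particular about the lists, and a missed threshold does not show equality.

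Outside the lists, some well-detected genes were chosen after their values were seen. Csf1, the macrophage growth factor, measured 6.47 and 7.23 in sleep and 8.38 and 8.75 after deprivation (1.53 ± 0.29, adjusted p = 0.0492), but its 3 other probe sets gave -0.17 to 0.09. Dio2, the deiodinase that activates thyroid hormone, had 9.41 and 9.22 against 10.39 and 10.62 (1.02 ± 0.17, adjusted p = 0.0402), with 1.02 and 0.78 in its other probe sets. Pdp1, the phosphatase that activates pyruvate dehydrogenase, had 10.36 and 10.42 against 11.46 and 11.57 (0.94 ± 0.15, adjusted p = 0.0388), with 0.67 in its second probe set. For Dio2 and Pdp1 the other probe sets had values of the same sign, and for Csf1 they did not.

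Of the 7 lower genes at or above the median level, Dbp is described above. Oxtr, the oxytocin receptor, measured 7.27 and 7.45 in sleep and 6.15 and 5.61 after deprivation (-1.66 ± 0.22, adjusted p = 0.0415), but 0.84 in its second probe set. Stx16, a syntaxin of the Golgi, had 9.22 and 8.84 against 7.80 and 7.58 (-1.52 ± 0.21, adjusted p = 0.045). Bcap31, a membrane chaperone of the endoplasmic reticulum, had 10.86 and 10.88 against 9.89 and 9.79 (-1.21 ± 0.16, adjusted p = 0.0467), and its dimmer second probe set gave 0.13. Zdhhc4, a palmitoyltransferase, had 7.43 and 7.67 against 6.39 and 6.21 (-1.43 ± 0.20, adjusted p = 0.0458). The states were separated in all of them, as in 58.4% of all genes. For Oxtr and Bcap31 the decrease was seen in 1 of 2 probe sets.

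Among called genes, 11 of the 15 largest increases and all 15 of the largest decreases lay below the median level. Larger differences without a call are left out here, such as Skor1 (-2.68), Gdap10 (-2.67), the bright Ttr (-2.62) and Erv3 (2.27). The increases were Noxred1 (2.79), Egr2, Fos, Plscr1 (2.46), Tmem120a (2.30), Zscan20 (2.14), Arc, Maff, Bst1 (2.14), Gem (2.06), Eva1c (1.99), Iqgap1 (1.98), Ccn1 (1.97), Nr4a1 and Tnc (1.93). Gem, a small GTP-binding protein, Ccn1, a matricellular protein, and Tnc, the matrix glycoprotein tenascin C, measured 5.85 and 5.34, 5.21 and 4.89, and 5.79 and 6.77 after deprivation, and at most 3.63, 3.05 and 4.28 in sleep. The decreases were Trip13 (-2.76), Zfp758 (-2.40), P2ry6 (-2.34), Apof (-2.20), Asxl3 (-2.01), Prokr2 (-1.99), Stat5a (-1.99), Clec10a (-1.95), Polg2 (-1.94), Fsip1 (-1.89), Slc13a5 (-1.87), Slc25a35 (-1.85), Aox4 (-1.77), Mrgpra4 (-1.77) and Adgrf5 (-1.76). Trip13, an ATPase of chromosome synapsis, had 6.73 and 6.31 in sleep and 3.96 and 3.92 after deprivation, with -0.72 and -0.02 in its other probe sets. P2ry6, a receptor for UDP, had 6.69 and 6.16 against 4.19 and 4.34, and Stat5a had 1.07 in its other, brighter probe set. Other probe sets also went against the called sign for Bst1 (-0.90), Tnc (-0.19), Prokr2 (0.63) and Adgrf5 (0.23). They had both signs for Plscr1 (-0.51 to 0.73), Ccn1 (-0.12 to 0.55) and Iqgap1 (-0.75 to 1.88, with 2 of 6 positive).

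Cell type markers were read next. Of all genes 1.42% were called higher, 0.451% lower and 25.3% had an unadjusted p under 0.05. The same probe sets in the sleep groups gave, for Aldh1l1, a mean of 7.10 in the unbound and 10.84 in the bound fraction and, for Slc17a7, a marker of excitatory neurons, 9.07 and 8.52, as values without a test from separately normalized arrays. Summed over 19 neuronal markers, such as Slc17a7 and Snap25, levels were 16.40 and 16.34 in sleep and 16.60 and 16.56 after deprivation, and 0 of the 19 were called (median -0.00, 3 with an unadjusted p under 0.05). Summed levels of 18 astrocyte markers were 14.45 and 14.43 against 14.73 and 14.65, and Ppp1r3c, a glycogen-targeting subunit, was the 1 called member (0.83 ± 0.17, adjusted p = 0.0484). Aldh1l1, the gene whose promoter drives the transgene, measured 7.14 and 7.06 against 7.05 and 6.75 (-0.38 ± 0.19, adjusted p = 0.545), and Rpl10a 11.49 and 11.55 against 11.89 and 11.78 (0.14 ± 0.15, adjusted p = 0.248). None of 12 oligodendrocyte (median 0.06), 8 precursor (-0.14), 12 microglial (-0.30), 12 endothelial (0.22), 9 pericyte (0.05), 9 meningeal (-0.02) and 2 red blood cell markers (0.26) passed, that is 0 called, with 3, 2, 1, 4, 4, 3 and 1 at an unadjusted p under 0.05. In the pericyte and smooth muscle list the brighter second probe set of Myh11, a smooth muscle myosin, was lower (-2.59 ± 0.35, adjusted p = 0.0415 with every probe set tested by limma). That list held 1 lower gene with the probe set brightest in the unbound arrays and 1 with the mean of probe sets. Over all genes 88 and 116 were lower in these settings. Of 16 cortical layer markers the dim Scnn1a fell (-1.24 ± 0.16, adjusted p = 0.0426). At these shares of all genes, 0 or 1 call in a list of this size says nothing particular about a cell type.

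Markers of neighbouring structures varied between pools. Ttr, the main transcript of choroid plexus, measured 12.18 and 13.46 in sleep, 13.47 and 12.77 in waking and 8.24 and 12.52 after deprivation, so that 1 deprivation pool stood far below the other 5 pools. The summed ependymal and choroid plexus list was 12.30 and 13.55 in sleep and 9.63 and 12.64 after deprivation (10 genes, 0 called, 0 with an unadjusted p under 0.05, median -0.44). All 10 thalamic and hippocampal markers had negative values (0 called, 4 with an unadjusted p under 0.05, median -0.44), and their summed level was 12.85 and 12.75 in sleep and 12.70 and 12.54 after deprivation. Tcf7l2, a thalamic transcription factor, had 10.04 and 10.01 against 9.0 and 9.0 (-1.21 ± 0.22, adjusted p = 0.0695). For striatal markers the values lay nearer to the median of all genes (8 genes, 0 called, 1 under 0.05, median -0.05). Of all genes 1.42% were higher, 0.451% lower and 25.3% under 0.05. The part of these structures in the calls was not tested. The ratio of the 3′ to the 5′ probe set of Actb, a measure of RNA integrity, was -0.06 and -0.12 in sleep, 0.04 and 0.01 in waking and -0.45 and -0.39 after deprivation on the log2 scale, so both deprivation pools lay below the other 4. That of Gapdh was 1.64 and 1.58 in sleep and 1.75 and 1.71 after deprivation. Their part in the results was not tested.

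**Figure D4:**
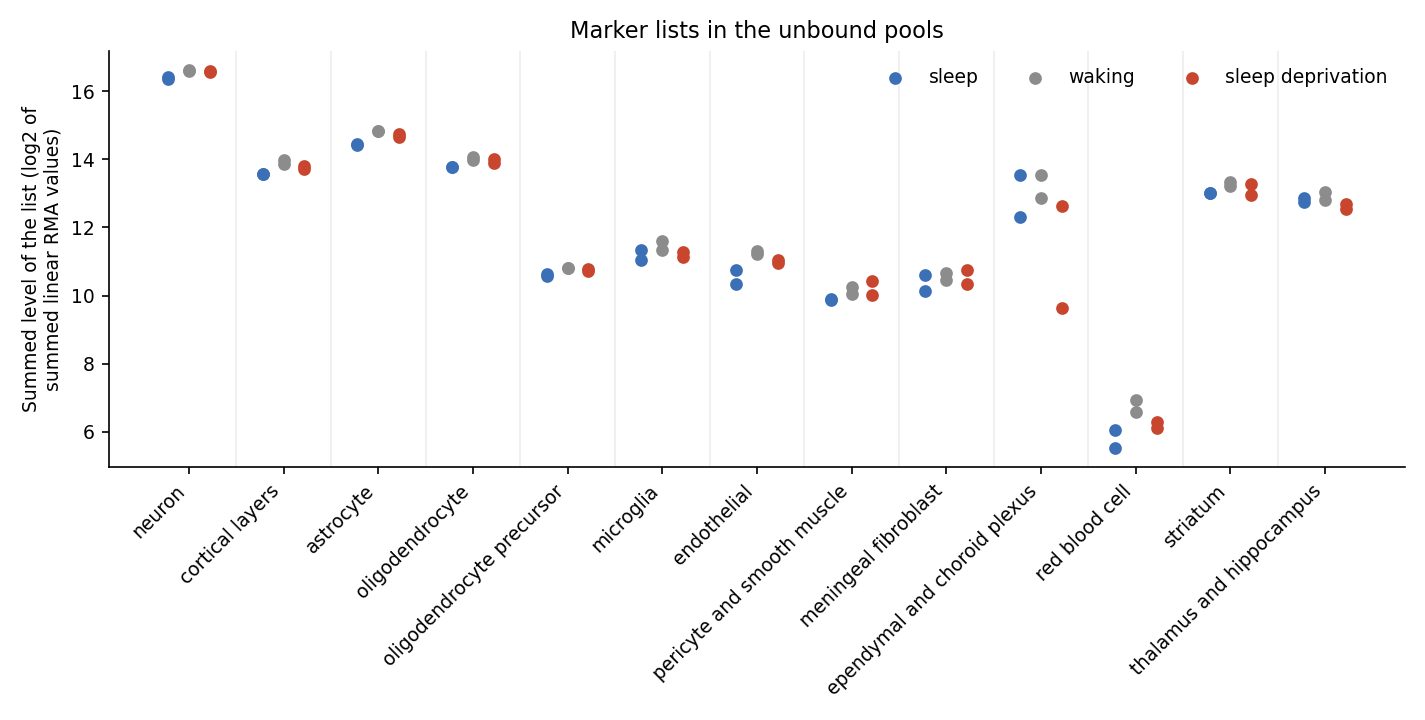
The summed level (log2 of the sum of the linear values) of 13 marker lists is shown for the 6 unbound pools, sleep in blue, waking in grey and sleep deprivation in red. Ependymal and choroid plexus markers range from 9.63 to 13.55, while neuronal markers stay between 16.34 and 16.63.

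Sleep deprivation was also set against spontaneous waking in the same fraction, a state in which mice are awake of their own accord at another time of day. This comparison shares the deprivation pools with the one above, and 138 genes passed (0.759%), 44 higher and 94 lower. For many activity genes no difference between the waking and deprivation pools was detected. Fos had 8.84 and 9.41 in the waking pools, a difference of 0.43 (adjusted p = 0.607), Arc 9.36 and 9.97 (0.31, adjusted p = 0.744), Nr4a1 8.82 and 9.19 (0.12, adjusted p = 0.992) and Creld2 9.47 and 9.45 (-0.01, adjusted p = 0.718). Cdkn1a, Egr3 and Dusp5 had waking values between those of sleep and deprivation, with differences of 0.82 (adjusted p = 0.0798), 0.78 (adjusted p = 0.0888) and 0.74 (adjusted p = 0.112), and Dusp1 was at -0.63 (adjusted p = 0.0912), with waking pools of 10.80 and 10.86. The members of the pathway lists that passed were Atf3, a stress-induced transcription factor, higher after deprivation (1.79 ± 0.24, adjusted p = 0.0476), and Grip1, an AMPA receptor scaffold (-1.08 ± 0.16, adjusted p = 0.0476), and Hspe1 (-1.0 ± 0.15, adjusted p = 0.0476), both lower. Atf3 was dim, and both of its waking pools measured 4.04. The dimmer second probe set of Grip1 had 7.53 and 7.89 in waking and 7.56 and 7.58 after deprivation. Oxtr (-1.48 ± 0.22, adjusted p = 0.0476) and Bcap31 (-1.07 ± 0.16, adjusted p = 0.0476) were lower than in waking as well. With joint quantile normalization 2 genes passed in this comparison, and 0 when any 1 array was left out.

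The difference between sleep deprivation and sleep was compared between fractions with all 24 arrays. It differed for 890 genes (4.89%), 361 with the unbound value above the bound one and 529 with it below, and 786 of the 890 lay below the median level. Both fractions came from the same 6 animals per state, which the fit treats as separate samples. For the leading activity genes no difference between fractions passed the test. Egr2 had 2.71 in the unbound and 3.28 in the bound fraction (difference -0.57 ± 1.04, adjusted p = 0.907), Arc 2.14 and 2.60 (-0.46 ± 0.65, adjusted p = 0.876), and Homer1 1.04 and 1.06 (-0.02 ± 0.38, adjusted p = 0.981). Fos had 2.47 and 1.09 (1.38 ± 0.50, adjusted p = 0.114), and Fkbp5 1.28 and 2.87 (-1.59 ± 0.83, adjusted p = 0.386). With SEs of 0.38 to 1.04 these tests do not show that the fractions responded alike.

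Well-detected members of the lists that did differ were few. Crem, a cyclic AMP-responsive factor, had -0.02 in the unbound fraction (8.55 and 8.53 in sleep, 8.86 and 8.53 after deprivation) and 1.43 in the bound fraction, a difference of -1.45 ± 0.29 (adjusted p = 0.00639). In the unbound fraction its 3 other, dimmer probe sets gave -0.36 to 0.83. Bhlhe40, a clock repressor, had 0.55 and -0.39 (0.95 ± 0.22, adjusted p = 0.00849), and Idi1, an isomerase of cholesterol synthesis, 0.60 and -0.16 (0.76 ± 0.22, adjusted p = 0.0289). A second Idi1 probe set, brighter in the unbound arrays, gave 0.19 in the unbound fraction. Hspe1 had -0.73 and -0.10 (-0.63 ± 0.13, adjusted p = 0.0149), and its dimmer second probe set gave -0.18 in the unbound fraction. The dim Dusp10 had 0.86 and -0.68 (1.54 ± 0.37, adjusted p = 0.0127). Oxtr (-1.66 and -0.20, adjusted p = 0.00198) and Stx16 (-1.52 and 0.35, adjusted p = 0.000528) had the lower difference in the unbound fraction. When genes below the median level over the 24 arrays were left out before the fit, 13 genes differed between fractions, and without 1 of the sleep or deprivation pools 447 to 505 did.

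**Figure D5:**
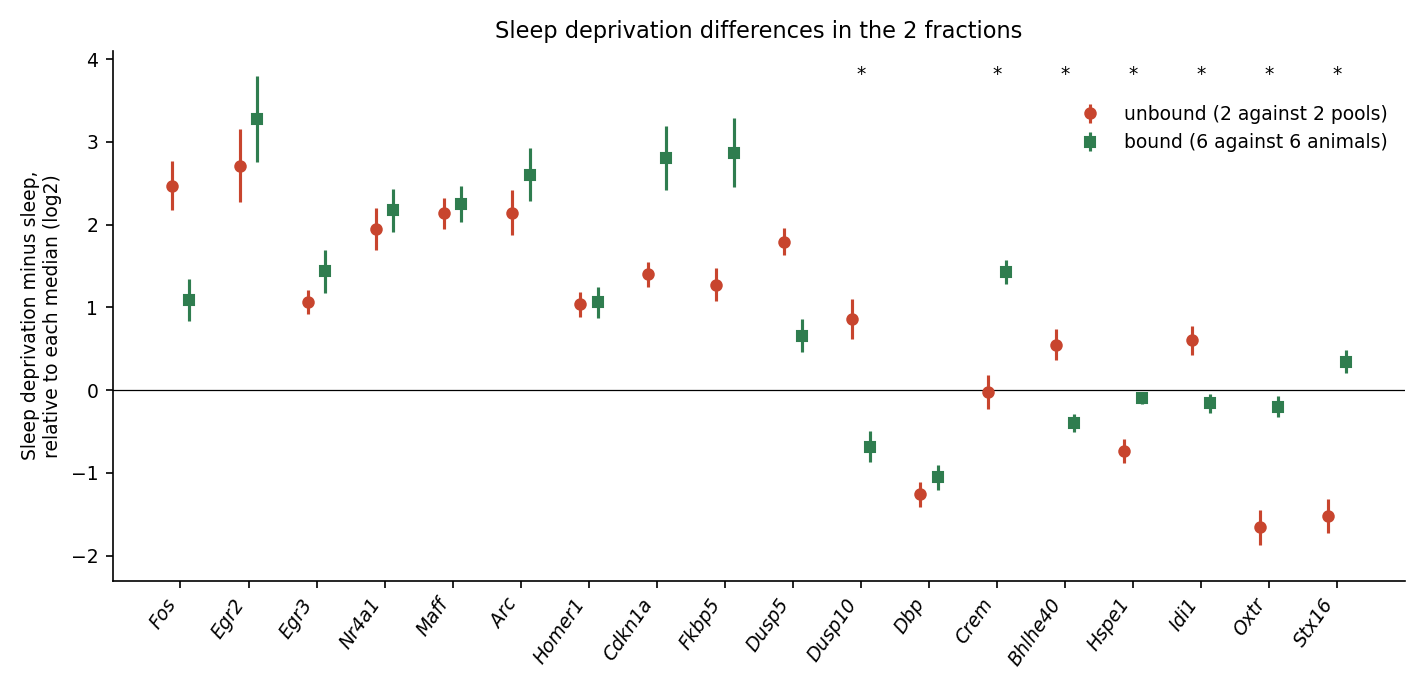
Relative log2 differences between sleep deprivation and sleep with their SE are shown for 18 genes, in the unbound fraction as red circles (2 against 2 pools) and in the bound fraction as green squares (6 against 6 animals). Asterisks mark the 7 genes with an adjusted p under 0.05 for the difference between fractions, among them Crem (-0.02 and 1.43) and Stx16 (-1.52 and 0.35).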

How the data were processed

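RNA from mouse cerebral cortex was hybridised to Affymetrix whole-genome mouse arrays. The authors deposited log2 values, and the submitters' processing notes name RMA. The RMA version is not given in the sources used here. Samples were grouped by the labels. Probe sets with 1 gene symbol in the platform annotation were kept, symbols were updated through the RefSeq gene table, and each gene was read from its probe set with the highest mean over 24 arrays. The 6 unbound arrays in 3 groups were fitted with limma 3.58.1 in R 4.3.3 (lmFit and eBayes, no block), with Benjamini-Hochberg adjustment at 0.05, and the fit was tested on simulated data. Fractions were compared by an interaction contrast over 24 arrays. The p-values measure the spread between pools of 3 mice. Precision is limited by 2 pools per state. Differences are shown relative to the median of all genes. Named are the 15 largest called differences each way (skipping unnamed, predicted and Y-linked transcripts and Xist), 10 each way between fractions, list members, and some genes chosen after their values were seen. Of 539 listed genes, 493 were measured. Members and lists were chosen with earlier results of these data known. Alternatives varied the arrays, probe set rule, filter, scaling, prior variance, weights, threshold, block and arrays left out. Tables and plots used Python 3.11.15, pandas 2.3.3 and matplotlib 3.10.9. Promoter sequences are from RefSeq (GRCm38.p6).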

Additional observations from a re-analysis of the deposited data

Results flagged for a closer look

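For 43 named genes the difference between sleep deprivation and sleep was not the same in the unbound as in the bound fraction by limma's interaction term (adjusted p under 0.05), which is why they are listed. The value given for each is the unbound minus the bound difference on the log2 scale, and 32 of the 43 genes lay below the median level.

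Among the well-detected genes called higher after deprivation within the unbound fraction, it was 1.46 for Trib2, 1.26 for Ipo5 and 1.20 for Cygb. Their bound differences were negative (-0.33, -0.29 and -0.37) and did not pass in limma (adjusted p = 0.293, 0.453 and 0.31).

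Among members of the pathway lists it was 1.54 for Dusp10, 0.95 for Bhlhe40, 0.76 for Idi1, -0.63 for Hspe1 and -1.45 for Crem. Among cell type markers it was 1.72 for Slco1a4, an endothelial transporter, -1.03 for Myh11, a smooth muscle myosin, and -1.13 for Itgam and -1.28 for Trem2, microglial surface receptors. These markers were dim, and none of the 4 tested probe sets passed in the unbound fraction (0 called, adjusted p = 0.127 for Trem2). A brighter second probe set of Myh11 was lower there, at -2.59 (adjusted p = 0.0415 with every probe set tested).

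Positive values among the genes chosen by size were 3.19 for Erv3, 2.82 for Plscr1, 2.66 for Tnc, 2.45 for Ttk, 2.40 for Tmem120a, 2.35 for Myh2, 2.30 for Plekhg4, 2.24 for Kcns1, 2.22 for Slco5a1, 2.17 for Lpar2, 2.04 for Zscan20, 1.84 for Bst1 and 1.66 for Iqgap1. For Erv3 the 2 deprivation pools stood far apart, at 3.35 and 6.38.

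Negative values were -1.08 for Zdhhc4, -1.41 for Adgrf5, -1.46 for Oxtr, -1.52 for Mrgpra4, -1.64 for Apof, -1.75 for Aox4, -1.75 for Slc13a5, -1.86 for Stx16, -2.24 for Gdap10, -2.25 for Prokr2, -2.27 for Aoc3, -2.29 for Fsip1, -2.33 for Hif3a, -2.48 for Stat5a, -2.48 for Zfp758, -2.65 for Skor1, -3.52 for P2ry6 and -4.22 for Tcim. For Tcim and Hif3a the size came from the bound fraction, with bound differences of 3.60 and 2.57 against unbound ones of -0.62 and 0.24.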

How the results depend on the processing

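As reported, 341 genes differed between sleep deprivation and sleep, 259 higher and 82 lower. No gene (0) passed with only the 4 arrays of both states (4489 at an unadjusted p under 0.05), against a fold of 1.5 (733), with the replicate block (4590), or when any 1 of the 6 arrays was left out (range 0 to 0, with 3143 to 4489 at an unadjusted p under 0.05). All 24 arrays gave 999 genes (734 higher, 265 lower), an intensity trend 1259 (1005 and 254), every probe set 744 (553 and 191) and the mean of probe sets 568 (452 higher). Without the genes under the median level 36 passed (34 and 2), with joint quantile normalization 126 (60 higher) and with centred arrays 153 (76 higher). Both scalings moved the median difference of all genes from 0.178 to 0.0075 and 0.026. Of 71 called genes named here, 37 kept their call under joint quantile normalization, 44 with centred arrays, 48 with all 24 arrays, 50 with the mean of probe sets and 71 with the intensity trend. Against waking, 138 genes became 0 with the replicate block, 0 without the genes under the median level, 210 with the mean of probe sets, 2 with quantile normalization, 11 with centred arrays and 0 to 0 without 1 array. Between fractions, 890 genes became 1534 with the replicate block, 13 without the dimmer genes and 447 to 881 without 1 of the 6 unbound arrays (no bound array was left out).

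Pool numbers showed no pairing of the unbound pools: the deviations of same-numbered pools from their group means correlated at 0.001, 0.029 and 0.013 across genes. The bound arrays did split by number in each state. Their log2 Gapdh 3′ minus 5′ values were 0.31 to 0.46 in replicates 1 to 3 and 0.97 to 1.04 in replicates 4 to 6. The main comparison between fractions had no term for this split. Signs reversed for Crem (0.24), Nr3c1 (0.041) and Grip1 (0.081) with the mean of probe sets. Leaving out 1 pool gave -0.15 to 0.11 for Crem, -0.39 to 0.016 for Nr3c1, -0.027 to 1.17 for Per2 and -0.22 to 0.71 for Hif3a. They also reversed with the probe set brightest in the unbound arrays for Stat5a (1.07), Ttk (-0.40), Slco5a1 (-0.20) and Hif3a (-0.29). Apart from the construction of each alternative, the cause was not tested.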

Other observations

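Some further well-detected genes outside the lists, chosen after their values were seen, were also higher in the unbound RNA of sleep-deprived mice than in that of sleeping mice. Trib2, a pseudokinase, measured 8.29 and 8.35 in sleep, 9.58 and 9.54 in waking and 9.65 and 9.61 after deprivation, a relative difference of 1.13 ± 0.15 (SE, limma adjusted p = 0.0374). Cbln4, a secreted organizer of synapses, had 7.84 and 7.79 in sleep and 9.03 and 8.90 after deprivation (0.97 ± 0.16, adjusted p = 0.0388), and Sstr4, a somatostatin receptor, had 6.73 and 7.17 against 8.68 and 8.23 (1.33 ± 0.25, adjusted p = 0.0497). A brighter second Sstr4 probe set gave 0.70 without a call (adjusted p = 0.101 with every probe set tested). Ipo5, a nuclear import receptor, had 10.13 and 10.10 against 11.26 and 11.27 (0.97 ± 0.15, adjusted p = 0.0383), with 0.59 and 0.13 in its dimmer probe sets. Those of Trib2 gave 0.73 and 0.09. Kdelr1, which returns resident proteins to the endoplasmic reticulum, had 7.06 and 6.89 against 8.23 and 8.17 (1.04 ± 0.17, adjusted p = 0.0388).

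In Mmp17, a membrane-anchored metalloproteinase, both sleep pools measured 9.95, and the deprivation pools 11.05 and 10.98 (0.89 ± 0.15, adjusted p = 0.0395). Cygb, the haem protein cytoglobin, had 9.64 and 9.72 against 10.75 and 10.64 (0.84 ± 0.16, adjusted p = 0.047). Ier5, an immediate early response gene, had 10.33 and 10.16 against 11.18 and 11.15 (0.74 ± 0.15, adjusted p = 0.0492), with 0.39 and 0.98 in its dimmer probe sets. For Pak3, a kinase of dendritic spines, the probe sets disagreed: the brightest was called at 0.77 ± 0.16 (adjusted p = 0.0485), while 2 others of nearly the same level gave 0.31 and -0.76. The states did not overlap in any of these genes, as in 58.4% of all genes. None passed against waking (0 of 9, adjusted p of 0.208 to 0.963). Of the 9, Trib2 alone kept its call both under joint quantile normalization and with centred arrays.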
